A study of Mus musculus with 12 samples.

Results

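Primitive endoderm genes were examined in mouse pre-iPSCs, partially reprogrammed cells that stall before they become induced pluripotent stem cells. The group holds 10 genes, *Gata4*, *Gata6*, *Sox7*, *Sox17*, *Foxa2*, *Pdgfra*, *Dab2*, *Lrp2*, *Cubn* and *Afp*, chosen by symbol among 20325 genes. All 10 were listed in every library, and none averaged 1 TPM (a unit in which reads are scaled by transcript length and library total) over the 12 libraries. The cells were held for 48 h in ESC media with DMSO, with AA (ascorbic acid, 50 µg/ml), with 2i (1 µM MEK inhibitor and 3 µM GSK inhibitor) or with AA+2i, in 3 biological replicates labelled A, B and C. They were kept on irradiated feeders beforehand and treated with no feeder layer. According to the study's methods, pre-iPSC lines were derived from *Nanog*-GFP reporter fibroblasts given retroviral Oct4, Sox2, c-Myc and Klf4. The methods also describe fibroblasts and astrocytes for pre-iPSCs that held these factors in 1 cassette, with rtTA. Which line gave the RNA is not named there. In either form the factors were transgenes shared by all conditions. The labels do not say which line each replicate came from, so the p-values measure the spread between these libraries.

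The primitive endoderm is the layer of the blastocyst that separates from the epiblast and later forms the visceral and parietal endoderm of the yolk sac. FGF4 from epiblast cells acts through receptors, MEK and ERK to raise *Gata6*, while NANOG marks the cells that stay epiblast, and a MEK inhibitor in early embryos prevents the endoderm fate. *Gata6* stands early in this order, *Pdgfra*, *Sox17* and *Gata4* follow, *Sox7* comes later, and the endocytic receptors and secreted proteins of visceral endoderm come with differentiation. The comparison of 2i with DMSO, and of AA+2i with AA, asks whether these transcripts differed when the MEK inhibitor was present. The GSK inhibitor was always present with it, so their effects cannot be told apart here.

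The libraries held 16173342 to 54392672 estimated read counts, with DMSO B and AA B the deepest. Without the B libraries, the number of genes past the test in 2i against DMSO went from 592 to 1, while it was 272 without the A libraries and 52 without C. Of the 20325 genes, 13400 had at least 10 counts in at least 3 libraries and were tested. Naive epiblast markers were checked beside the members, and *Pou5f1* lay between 1865 and 9673 TPM, a value that can include the transgene. *Nanog* averaged 4.41 TPM in DMSO and 36.6 TPM in AA+2i and rose (log2 fold change 3.23, SE 0.36, adjusted p = 0.000499).

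The members stood in the lower range of all genes. *Dab2* was the highest at a mean of 0.747 TPM, and 59.4% of all genes had a higher mean. *Lrp2* followed at 0.602 TPM, *Pdgfra* at 0.225, *Gata6* at 0.188, *Sox7* at 0.147, *Cubn* at 0.105, *Gata4* at 0.0708, *Sox17* at 0.0358, *Foxa2* at 0.0242 and *Afp* at 0.0075 TPM. The median was 4.1 TPM over all genes and 19.5 TPM over the 13400 tested genes, and 42.2% of all genes averaged under 1 TPM. Only *Lrp2* reached 1 TPM in any library. The ranges of neighbours in this order overlapped, and every member from *Pdgfra* down stayed at or below 0.66 TPM in every library. Summed over the 10 genes, the level was 2.60 ± 0.11 TPM in DMSO, 2.31 ± 0.62 in AA, 2.13 ± 0.43 in 2i and 1.57 ± 0.52 in AA+2i (SD, n = 3). In bulk RNA, fewer cells that hold a transcript and less of it in each cell cannot be told apart.

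**Figure D1:**
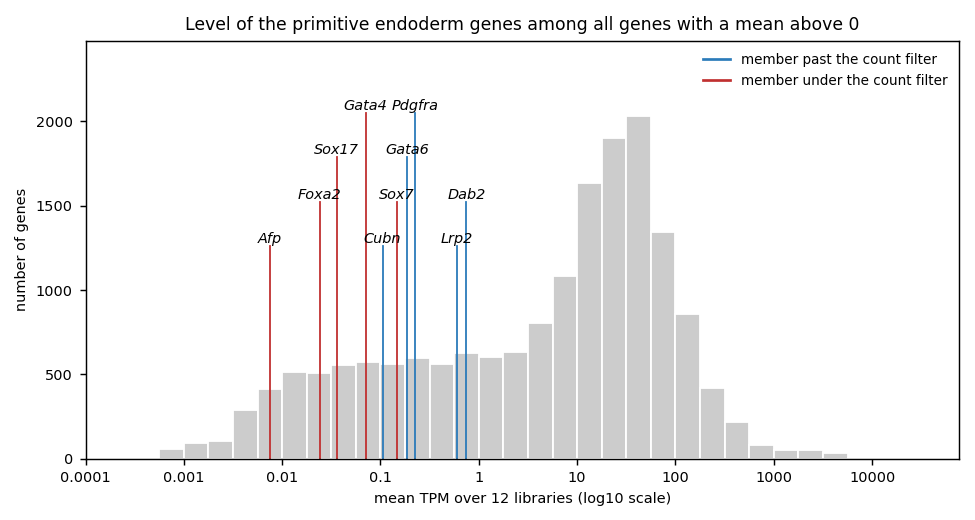
Histogram of mean TPM over the 12 libraries (x axis, log10 scale) for every gene with a mean above 0, with the number of genes per bin on the y axis and a line at each member. The members lie between 0.0075 and 0.747 TPM, below the median of all genes at 4.1 TPM and of the tested genes at 19.5 TPM.

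The 5 transcription factors of the group carried few reads. *Gata6*, the zinc-finger factor that starts the primitive endoderm programme, lies on chromosome 18 and was the only factor past the count filter. Its level in replicates A, B and C was 0.27, 0.28 and 0.23 TPM in DMSO and 0.39, 0.16 and 0.15 TPM in AA. In 2i it was 0.15, 0.12 and 0.10 TPM, and in AA+2i 0.15, 0.12 and 0.14 TPM. Every DMSO library was above every 2i and AA+2i library, but these values rest on 3 to 20 counts per library. *Gata6* reached the filter's count limit only in DMSO B, AA A and AA B (20, 12 and 14 counts). No 2i or AA+2i library had more than 6 counts. Its entry into the test thus rested on libraries without 2i, and a selection of this kind leans toward lower values with 2i. The log2 fold change was -0.85 in 2i against DMSO (SE 0.44, 95% interval -1.82 to 0.11, adjusted p = 0.383) and -0.66 in AA+2i against DMSO (SE 0.43, adjusted p = 0.323), and neither passed.

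*Gata4*, a relative of *Gata6* that follows it in the lineage, lies on the minus strand at chr14:63817759-63890529 (mm9). Its level in A, B and C was 0.11, 0.15 and 0.21 TPM in DMSO and 0.09, 0.05 and 0.12 TPM in AA. It was 0, 0.05 and 0 TPM in 2i and 0, 0 and 0.07 TPM in AA+2i. The summed counts were 20 in DMSO, 13 in AA, 2 in 2i and 3 in AA+2i, so with either 2i condition the gene stood at or under the limit of 3 counts that is treated here as not detectable. DMSO did not overlap with 2i or AA+2i. Of the 13400 tested genes, which do not include *Gata4*, 19.9% and 32.1% had no overlap in these comparisons, in either direction. The share among genes under the filter was not taken. *Gata4* failed the count filter, and when all genes with a count were tested its adjusted p was 0.264 in 2i against DMSO and 0.21 in AA+2i against DMSO.

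*Sox7*, an SRY-box factor of later primitive endoderm and of endothelium, lies on the plus strand at chr14:64562511-64569569 (mm9). It was at 0.35, 0.22 and 0.29 TPM in DMSO, and at 0.07, 0.08 and 0.14 TPM in AA. It was at 0.11, 0.14 and 0.12 TPM in 2i and at 0.06, 0.02 and 0.16 TPM in AA+2i. All 3 DMSO libraries were above the other 9, as in 1.31% of the 17171 genes tested without the count filter. Its estimated count was more than 0.005 from a whole number in 10 of 12 libraries, so the estimate divided some of its reads with another transcript and its level is uncertain. It failed the count filter too. Its adjusted p without the filter was 0.56 in 2i against DMSO, 0.483 in AA against DMSO and 0.199 in AA+2i against DMSO.

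*Sox17*, an SRY-box factor of primitive and definitive endoderm (chr1:4481009-4486494, minus strand, mm9), was at 0 in all 3 DMSO libraries. It was at 0.03 TPM in AA C alone among the AA libraries, at 0, 0.03 and 0.07 TPM in 2i, and at 0.03, 0.03 and 0.24 TPM in AA+2i. Of its 16 counts in the series, 10 came from AA+2i C, so no fold is given. *Foxa2*, a forkhead factor of visceral and definitive endoderm (chr2:147868613-147872705, minus strand, mm9), had 7 counts in 4 libraries, 3 of them in AA+2i C. These values were opposite in order to those of *Gata4* and *Sox7*, with 0 in DMSO and counts in some treated libraries. A count of 0 in the DMSO libraries together allows up to 0.0356 CPM (counts scaled to the library total alone), a limit that covers counting error only. Over the 5 members under the filter and 6 comparisons, no test without the filter passed (0 of 30), and 6 had an unadjusted p under 0.05. In that fit the lowest adjusted p, 0.119, was that of *Sox17* in AA+2i against DMSO, with the higher values in AA+2i. Over all genes this fit called 3.1% in 2i against DMSO, 0.938% in AA against DMSO, 6.04% in AA+2i against DMSO, 4.42% in AA+2i against AA, 0.652% in AA+2i against 2i and 0.0116% in the interaction.

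**Figure D2:**
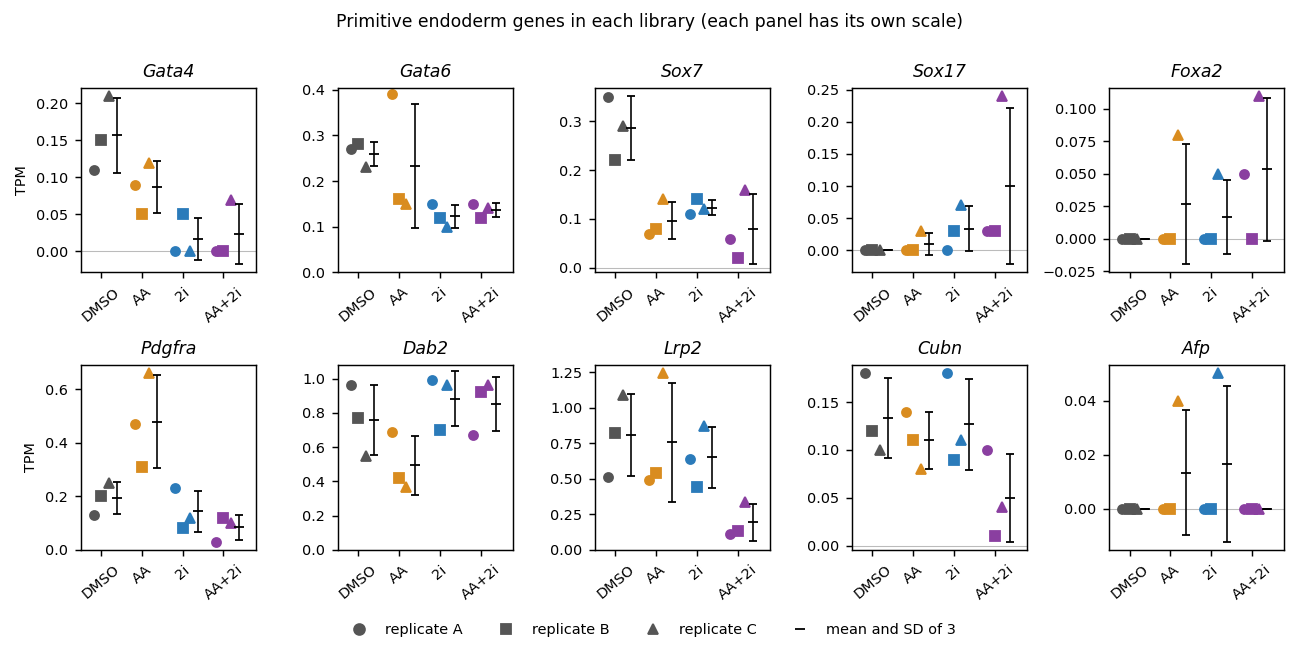
TPM of each member (y axis, a scale of its own in each panel) in the 12 libraries by condition (x axis), with a marker for each replicate and a bar for the mean and SD of 3 libraries. *Lrp2* in AA+2i lies between 0.11 and 0.34 TPM, under the other 9 libraries, and *Pdgfra* in AA lies between 0.31 and 0.66 TPM, above the other 9.

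*Pdgfra* encodes the PDGF receptor alpha, a tyrosine kinase on primitive endoderm and on fibroblasts, and lies on the plus strand at chr5:75548316-75594229 (mm9). It was the single member that passed the edgeR test of the 4-condition model, and it did so in AA+2i against AA, while other settings also called *Lrp2*, *Cubn* or *Dab2*. The 250 bases before the starts that RefSeq lists for *Pdgfra*, *Lrp2* and *Afp* (GRCm38.p6, gene strand, 5′ to 3′) are shown because the first 2 are the members with the clearest differences and the third is the one nearest 0. Capitals mark CG dinucleotides, at chr5:75152001-75152250 for *Pdgfra*, chr2:69586030-69586279 for *Lrp2* and chr5:90490464-90490713 for *Afp*.
Pdgfra: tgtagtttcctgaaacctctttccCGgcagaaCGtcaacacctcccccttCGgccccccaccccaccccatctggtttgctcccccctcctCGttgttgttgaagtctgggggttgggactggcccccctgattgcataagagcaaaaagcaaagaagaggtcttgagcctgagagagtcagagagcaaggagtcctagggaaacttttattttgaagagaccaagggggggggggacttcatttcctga
Lrp2: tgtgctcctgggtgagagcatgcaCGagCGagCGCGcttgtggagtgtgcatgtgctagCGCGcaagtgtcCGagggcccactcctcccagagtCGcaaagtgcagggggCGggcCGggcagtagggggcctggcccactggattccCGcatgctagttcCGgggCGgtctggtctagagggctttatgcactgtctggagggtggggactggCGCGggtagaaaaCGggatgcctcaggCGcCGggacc
Afp: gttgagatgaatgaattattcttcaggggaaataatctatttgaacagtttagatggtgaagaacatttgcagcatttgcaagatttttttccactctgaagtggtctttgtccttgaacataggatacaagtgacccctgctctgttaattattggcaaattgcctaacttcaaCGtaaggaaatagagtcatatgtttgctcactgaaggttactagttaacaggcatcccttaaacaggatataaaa
The *Lrp2* window held 18 CG dinucleotides at 66.4% G+C, while *Pdgfra* had 4 at 54.4% and *Afp* 1 at 36.0%. The median over 32851 listed windows of this length was 6. The *Afp* window had TATAAA in its last 60 bases, as did 2.87% of all windows on the gene's strand. The last letter of this TATAAA lay 2 bases before the listed start. Neither AGATAA nor TGATAA, the letters of common GATA sites, was found on either strand of the 3 windows, and 16.6% of all windows held at least 1 of them. The members had 9 listed windows in all. Of those not shown, a *Foxa2* window (chr2:148045465-148045714) and a *Dab2* window (chr15:6299539-6299788) held 1 match each. RefSeq windows were matched for 6 of the 10 members, with *Gata4*, *Gata6*, *Sox7* and *Sox17* not matched.

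*Pdgfra* was at 0.13, 0.20 and 0.25 TPM in DMSO A, B and C, and at 0.47, 0.31 and 0.66 TPM in AA. It was at 0.23, 0.08 and 0.12 TPM in 2i and at 0.03, 0.12 and 0.10 TPM in AA+2i. AA was thus above all other libraries, as in 2.83% of the tested genes, and AA+2i was below every DMSO and AA library. With AA+2i against AA the log2 fold change was -2.29 (SE 0.53, 95% interval -3.46 to -1.11, adjusted p = 0.0283), 4.88-fold lower. Every AA+2i library was below every AA library. The summed counts behind this were 142 in AA and 21 in AA+2i. The estimated count of *Pdgfra* was more than 0.005 from a whole number in 5 of 12 libraries. Among them were all AA libraries (30.01, 57.7 and 54.76), so the estimate divided some of its reads with another transcript. One of 5 tested members passed in this comparison, where 6.1% of all tested genes passed and 3.29% passed as lower. The call was lost when any 1 of the 3 AA+2i libraries or AA C was left out (adjusted p 0.0697 to 0.0946), and with AA and AA+2i fitted alone (0.0852), while the direction stayed.

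The other *Pdgfra* comparisons did not pass. AA against DMSO gave a log2 fold change of 1.33 (SE 0.50, 95% interval 0.23 to 2.44, adjusted p = 0.359), with no overlap of the libraries. The value was -0.24 in 2i against DMSO (SE 0.53, adjusted p = 0.818) and -0.95 in AA+2i against DMSO (SE 0.55, adjusted p = 0.285). The difference between the 2i effect with and without AA was -2.04 on the log2 scale (SE 0.76, 95% interval -3.70 to -0.38, adjusted p = 1), so it was not called. Because *Pdgfra* is also a fibroblast gene, fibroblast and mesenchymal markers were read beside it. Their summed level over 11 genes ranged from 15.5 to 23.4 TPM in AA and from 10.4 to 17.3 TPM in AA+2i. *Thy1* was the largest part of the AA sum, at a mean of 12.6 TPM, and averaged 3.8 TPM in AA+2i. The median log2 fold change of the 8 tested markers in AA+2i against AA was 0.62 (all genes -0.01). Of 8 tested, *Col3a1* rose in AA+2i against AA (log2 2.33, adjusted p = 0.0193) and none fell. *Thy1* had a log2 fold change of -1.60 (adjusted p = 0.0928), *Lum* was at 0 in every library, and *Col1a1* averaged 0.493 TPM in AA and 1.64 TPM in AA+2i. Their part in the *Pdgfra* result was not tested.

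The endocytic genes *Dab2*, *Lrp2* and *Cubn* act together in visceral endoderm. *Lrp2* encodes megalin and *Cubn* cubilin, large receptors that take up proteins and vitamin carriers, and *Dab2* is the adaptor that links such receptors to clathrin. All 3 passed the count filter, and edgeR with all 12 libraries and no further term called none of them in the 6 comparisons. Each was called in at least 1 comparison under another setting, most often *Lrp2*.

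*Lrp2* (chr2:69262397-69424122, minus strand, mm9) was at 0.51, 0.82 and 1.09 TPM in DMSO A, B and C, and at 0.49, 0.54 and 1.24 TPM in AA. It was at 0.64, 0.44 and 0.87 TPM in 2i and at 0.11, 0.13 and 0.34 TPM in AA+2i. The 3 AA+2i libraries were below the other 9, as in 1.81% of the tested genes. Its counts summed to 494 in DMSO, 556 in AA, 326 in 2i and 113 in AA+2i. The log2 fold change in AA+2i was -1.80 against DMSO (SE 0.59, 95% interval -3.09 to -0.52, adjusted p = 0.0876). It was -1.76 against AA (SE 0.58, adjusted p = 0.12) and -1.70 against 2i (SE 0.58, adjusted p = 0.282). These comparisons share the AA+2i libraries, so they are not separate evidence. With all 12 libraries *Lrp2* passed in DESeq2 against DMSO (-1.81, adjusted p = 0.0197) and against AA (-1.76, adjusted p = 0.0294). It passed against DMSO in limma on log2(TPM + 0.1) (-1.66, adjusted p = 0.036), where 8.42% of all tested genes passed. Over 25 alternatives its direction stayed in these 3 comparisons, and it passed in 6 against DMSO (adjusted p 0.000479 to 0.342), 4 against AA (0.00104 to 0.601) and 2 against 2i (0.00228 to 0.959). The lowest of each range came with a replicate block and GC content in the fit. That fit called 4589, 3424 and 1436 of 13286 genes in the same order of comparisons. Without AA+2i C, the highest AA+2i library, the value against DMSO was -2.65 (adjusted p = 0.0327). In 2i against DMSO it was -0.11 (SE 0.56, 95% interval -1.34 to 1.12) and in AA against DMSO -0.04 (SE 0.56).

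*Cubn* (chr2:13197965-13413551, minus strand, mm9), the partner receptor, was at 0.18, 0.12 and 0.10 TPM in DMSO and 0.14, 0.11 and 0.08 TPM in AA. It was at 0.18, 0.09 and 0.11 TPM in 2i and 0.10, 0.01 and 0.04 TPM in AA+2i. The AA+2i libraries overlapped with AA and 2i, and their highest value equalled the lowest of DMSO. AA+2i differed by -1.21 on the log2 scale from DMSO (SE 0.57, 95% interval -2.45 to 0.04, adjusted p = 0.214) and by -1.29 from 2i (SE 0.57, adjusted p = 0.489). Its counts were whole in all 12 libraries, from 2 to 36.

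*Dab2* (chr15:6249788-6390712, plus strand, mm9) was at 0.96, 0.77 and 0.55 TPM in DMSO and 0.69, 0.42 and 0.37 TPM in AA. It was at 0.99, 0.70 and 0.96 TPM in 2i and 0.67, 0.92 and 0.96 TPM in AA+2i. The means in 2i (0.883 ± 0.159 TPM) and AA+2i (0.850 ± 0.157) were above those in DMSO (0.760 ± 0.205) and AA (0.493 ± 0.172; SD, n = 3). Every 2i library was narrowly above every AA library (lowest 0.70 against highest 0.69 TPM), and the other pairs of conditions overlapped. However, 2i against AA was not among the comparisons tested, and the share of all genes with no overlap there was not taken. The log2 fold change was 0.37 in 2i against DMSO (SE 0.32, 95% interval -0.34 to 1.08, adjusted p = 0.599) and 0.96 in AA+2i against AA (SE 0.33, 95% interval 0.24 to 1.68, adjusted p = 0.131). With a curve on transcript GC content added, the last comparison passed (adjusted p = 0.0176), where 13.2% of all genes tested in that fit passed.

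*Afp*, alpha-fetoprotein, is the secreted protein of visceral endoderm (chr5:90919740-90937933, plus strand, mm9). It had 2 counts in the series, 1 in AA C and 1 in 2i C, and was at 0 in the other 10 libraries. Over all 12 libraries the limit set by 3 counts was 0.00968 CPM.

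Over the 5 tested members, 0 passed in 2i against DMSO (0 with unadjusted p under 0.05), where edgeR called 4.42% of all tested genes. In AA against DMSO 0 passed beside 1.34% of all genes, and in AA+2i against DMSO 0 passed beside 8.34%, each with 1 member at an unadjusted p under 0.05. In AA+2i against 2i 0 passed beside 0.91% (2 members at an unadjusted p under 0.05), and in the interaction 0 passed beside 0.0149% (1 member). DESeq2 called 1 member in AA+2i against DMSO and 2 in AA+2i against AA, *Lrp2* in both and *Pdgfra* in the second, and 0 in the other 4 comparisons, beside 14% and 9.77% of all genes in the first pair. The libraries did not overlap for 3 of 5 members in AA+2i against DMSO, where 32.1% of all genes had this, and for 2 of 5 in AA+2i against AA beside 24.5%. It was 1 of 5 in 2i against DMSO beside 19.9%, 1 of 5 in AA against DMSO beside 9.49% and 1 of 5 in AA+2i against 2i beside 16.1%. The median log2 fold change of the 5 was -0.11 in 2i against DMSO (all genes -0.02), -0.95 in AA+2i against DMSO (all genes -0.02) and -0.94 in AA+2i against AA (all genes -0.01).

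**Figure D3:**
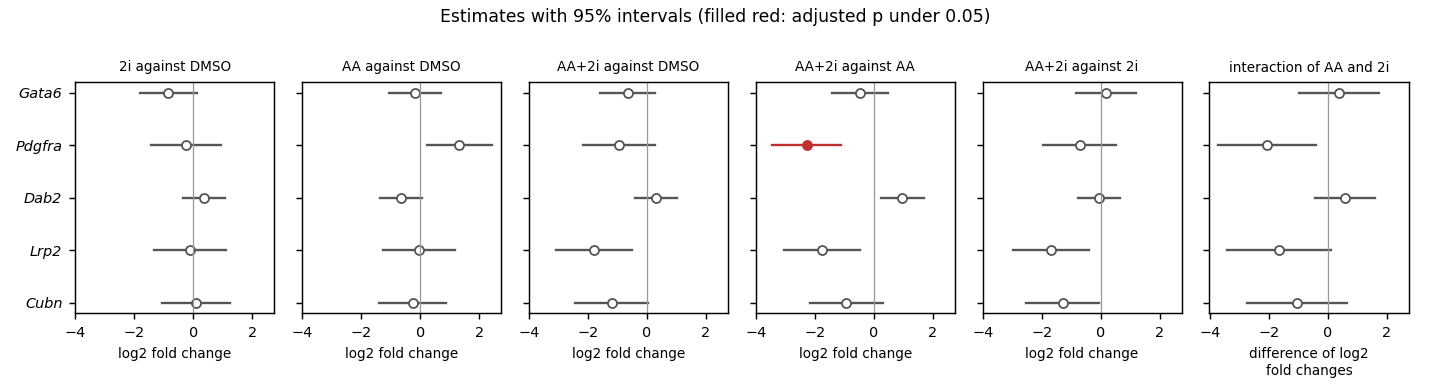
Log2 fold change (x axis; in the last panel a difference of log2 fold changes) of the 5 tested members (y axis) in 6 comparisons, with 95% intervals as lines and filled red where the adjusted p was under 0.05. *Pdgfra* in AA+2i against AA, at -2.29, is the single filled point, and the *Dab2* estimate there is 0.96.

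In the wider endoderm lists, most visceral endoderm genes were near 0 and several matrix genes were high. Of 48 calls in all lists beside the members, 5 were kept without the B libraries, *Lamb1* and *Dusp6* in AA+2i against DMSO and against AA and *Dusp4* in AA+2i against DMSO. Of 14 other primitive and visceral endoderm genes, 3 passed the count filter, and 0 passed the test in 2i against DMSO, AA against DMSO and AA+2i against AA. *Ttr* and *Apoa4*, carriers of thyroid hormone and lipid, were at 0 in all libraries. *Cited1*, a transcriptional coregulator, was the highest at 53.8 to 93.4 TPM as condition means, so the list is not at 0 throughout. *Lefty1*, a Nodal antagonist that is also expressed in naive cells, rose in AA+2i against DMSO (log2 3.60, SE 0.85, adjusted p = 0.0252), from a mean of 0.197 to 2.31 TPM.

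Of 14 parietal endoderm and basement membrane genes, 13 were tested and 0 rose in any of the 6 comparisons. With 2i against DMSO 2 fell, *Lamb1* and *Nid1*, which encode laminin beta-1 and nidogen. *Lamb1* went from 63.9 ± 33.1 TPM in DMSO to 8.41 ± 0.989 in 2i (SD, n = 3; log2 -2.70, SE 0.26, adjusted p = 0.00036) and from 41.9 TPM in AA to 5.96 TPM in AA+2i (log2 -2.64, SE 0.26, adjusted p = 0.000278). *Nid1* went from 4.39 to 0.953 TPM with 2i (log2 -1.98, SE 0.27, adjusted p = 0.00257) and the pair also fell in AA+2i against DMSO. *Sparc*, another matrix gene, was the highest at 323 to 530 TPM as condition means and did not pass (log2 -0.39 in 2i against DMSO, adjusted p = 0.506). Without the B libraries, *Lamb1* had an adjusted p of 0.0523 in 2i against DMSO and 0.0496 in AA+2i against AA.

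Among 13 relatives and partners of the members, 8 were tested. *Gata1*, a blood-lineage GATA factor, fell in AA+2i against AA (log2 -1.50, adjusted p = 0.0455) and against DMSO (log2 -2.05, adjusted p = 0.00941). *Gata2*, another of the family, rose in AA+2i against DMSO (log2 3.93, SE 1.03, adjusted p = 0.0396), from a mean of 1.31 to 16.1 TPM. *Lrpap1*, the chaperone of the LRP receptors, was the highest at 152 to 213 TPM as condition means. Of the receptors, *Lrp2* was at most at 1.24 TPM in any library, while *Lrp1* had condition means of 21.2 to 57.0 TPM. *Dab1*, *Foxa1*, *Foxa3* and *Afm* averaged at most 0.1 TPM in each condition.

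Signals into the members and the output of ERK were read in the same fit. *Fgf4*, the ligand from epiblast cells, fell in 2i against DMSO (54.4 to 21.4 TPM; log2 -1.16, SE 0.17, adjusted p = 0.00299), in AA+2i against AA (log2 -0.90, adjusted p = 0.00846) and in AA+2i against DMSO (log2 -0.79, adjusted p = 0.0141). It was the only one of 8 tested FGF and PDGF genes to pass in these 3, and *Grb2*, *Ptpn11*, *Pdgfa* and *Fgfr1* did not. Of 8 tested ERK output genes, 3 fell in 2i against DMSO (*Dusp6*, *Dusp4* and *Spry4*) and 4 in AA+2i against AA (the same 3 and *Etv5*). *Dusp6*, a phosphatase of ERK, went from 62.5 to 6.89 TPM with 2i (log2 -3.00, SE 0.21, adjusted p = 4.63e-05) and from 64.3 to 6.35 TPM with AA+2i against AA (log2 -3.15, SE 0.21, adjusted p = 5.01e-05). The ERK list's median log2 fold change was -1.40 in 2i against DMSO, beside -0.11 for the 5 tested members and -0.02 for all genes. In AA+2i against AA the medians lay closer, at -1.27 for the ERK list and -0.94 for the members, and against DMSO they were -1.22 and -0.95. In AA+2i against 2i they lay apart, at 0.09 for the ERK list and -0.71 for the members. Each of these member medians is the estimate of a single gene that did not pass there. *Etv5* had the highest mean of the list, 400 TPM in AA and 205 TPM in AA+2i (log2 -0.80, adjusted p = 0.0279).

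**Figure D4:**
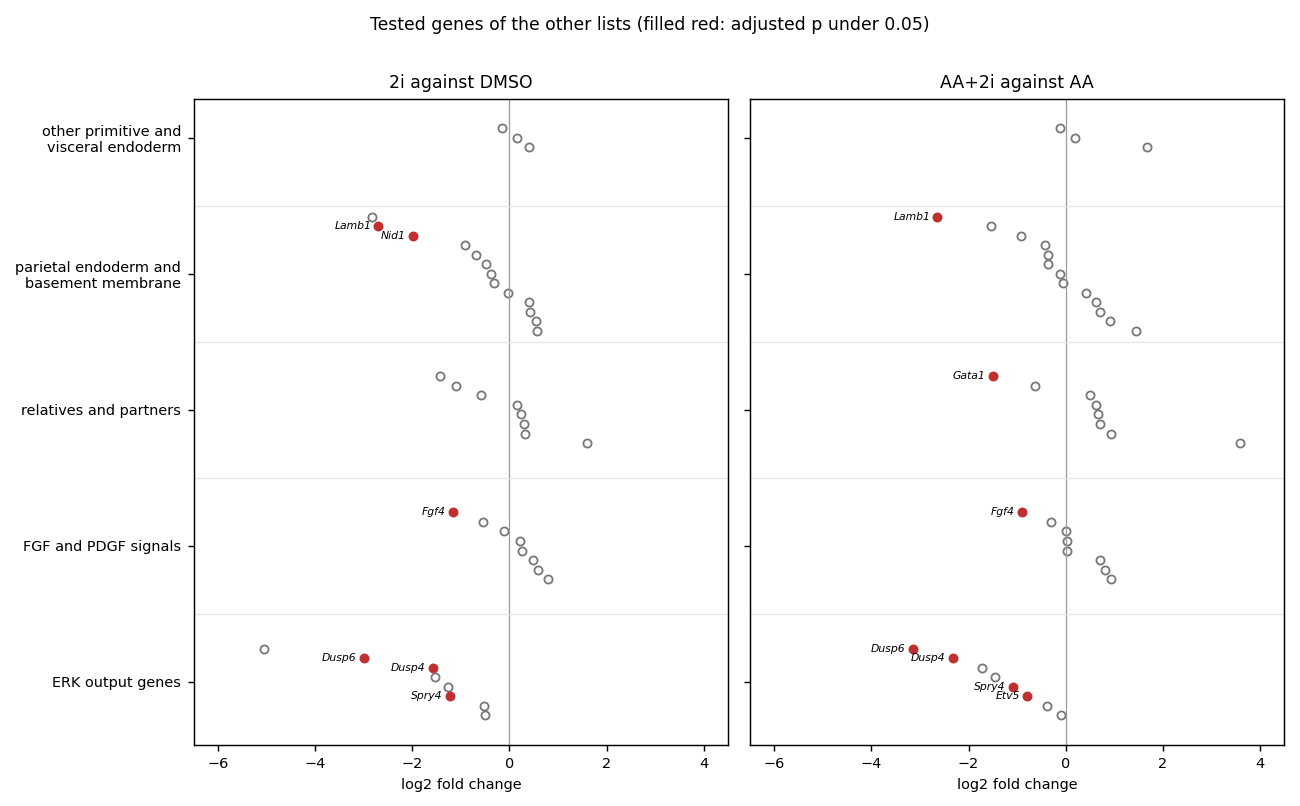
Log2 fold change (x axis) of every tested gene in 5 other lists (y axis) for 2i against DMSO (left) and AA+2i against AA (right), filled red where the adjusted p was under 0.05. *Dusp6* lies at -3.00 and -3.15 and *Lamb1* at -2.70 and -2.64, and the open point at the far left is *Egr1* (-5.05, adjusted p = 0.0703), named after its values were seen.

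Markers of other fates were counted in the same way. Of 3 tested definitive endoderm and mesendoderm markers, 1 fell in 2i against DMSO, *Eomes* (2.37 to 1.03 TPM; log2 -1.03, adjusted p = 0.0293), which also fell in AA+2i against AA and against DMSO. Of 3 tested trophoblast markers 0 passed in any comparison. Of 8 naive epiblast markers, 7 rose and 0 fell in AA+2i against DMSO, 5 rose in AA+2i against AA and 1 in 2i against DMSO. The 7 in AA+2i against DMSO were *Dppa3* (log2 6.75), *Tbx3* (5.08), *Esrrb* (3.70) and *Klf2* (3.37), with *Nanog*, *Tcfcp2l1* (listed now as *Tfcp2l1*) and *Zfp42* behind them.

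Patterns most like those of the 3 highest tested members were sought over the 12 libraries as Pearson correlations of log2 CPM. For *Dab2* they were *Tmem22* (r = 0.953), *Gm6900* (0.952) and *Serpinb3a* (0.921), which like *Dab2* had their lowest condition mean in AA. For *Lrp2* they were *Palm3* (0.924), *Jmjd4* (0.908) and *Kdr* (0.898), lowest in AA+2i. For *Pdgfra* they were *Agbl2* (0.893), *2310042E22Rik* (0.889) and *Aldh1a3* (0.875), highest in AA. Among the tested members themselves, r was 0.68 between *Pdgfra* and *Lrp2*, 0.474 between *Lrp2* and *Cubn*, and -0.637 between *Pdgfra* and *Dab2*. These values are descriptions over libraries that share conditions and depth.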

How the data were processed

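RNA sequencing of mouse pre-iPSCs covered 4 conditions with 3 replicates each. The authors trimmed the reads, aligned them with Bowtie to RefSeq genes of mm9 and estimated expression with RSEM 1.2.4 without strand. The deposited expected counts are RSEM estimates, not normalized, and the deposited TPM values are scaled within each library. Reads shared by similar transcripts are divided by the estimate, so low genes with such reads are uncertain. One deposited TPM cell, of a gene not named here, was malformed and was recomputed from its FPKM.

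After rounding, the expected counts entered the quasi-likelihood test of edgeR 4.0.16 with RLE factors, in 1 model of the 12 libraries with a mean per condition. The 13400 genes that reached 10 counts in 3 or more libraries were tested, with Benjamini-Hochberg adjustment and a threshold of 0.05. Intervals are at 95% and, like floors of 3 counts, cover only the spread or the counting error. The scripts were tested on simulated data. Alternatives were TMM factors, DESeq2 1.42.0, limma 3.58.1 on log2(TPM + 1) and log2(TPM + 0.1), other filters, 2 conditions alone, GC content, a replicate block and libraries left out. Leaving out single libraries was chosen after seeing the data. A further contrast, the conditions with 2i against those without it averaged over AA, was also fitted after the members' values had been seen. It is not reported: which members it called, from none to several, depended on the setting, and its one call in the model above, *Pdgfra*, was lost in most fits that left out libraries. The members and lists were chosen with earlier results of these data known. All members were named. Genes of other lists were named where they passed a comparison, at most 4 by size per list and comparison, or where highest by mean TPM, and a few more are given as values with no call. Genes most like the 3 highest tested members were taken by Pearson correlation. Gene positions are from GENCODE M1 (mm9), and sequences from RefSeq on GRCm38.p6. The authors' posterior probabilities of differential expression were not used.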

Additional observations from a re-analysis of the deposited data

How the results depend on the processing

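The count of members called was 0 in 2i against DMSO, in AA against DMSO and in the interaction under every alternative that was run, and 0 in AA+2i against 2i except with the replicate block. In AA+2i against DMSO, where the count was 0, it was 1 with DESeq2, 1 with limma on log2(TPM + 0.1) and 0 to 1 when a replicate letter or a library was left out, *Lrp2* each time. In AA+2i against AA, where it was 1, it was 2 with DESeq2 (*Lrp2* and *Pdgfra*), 2 with the GC correction (*Dab2* and *Pdgfra*), 0 with the 2 conditions alone, 0 with at least 10 counts in every library, a filter that *Pdgfra* does not pass, and 0 to 1 when a letter or a library was left out. *Pdgfra* lost the call in each fit without a letter (adjusted p 0.0992 without A, 0.255 without B and 0.26 without C). The cause was not tested.

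The letters A, B and C were tried as a replicate block. Deviations from the condition means correlated at 0.40 on average over 18 same-letter pairs of libraries, from -0.59 to 0.89. Over 36 pairs of other letters and conditions the mean was -0.20, from -0.83 to 0.77. Of 12 libraries, 11 were closest to a library of their own letter, so the letters go with part of the spread. The methods do not say that letters pair the RNA libraries, and the main model has no block. With the replicate block, 2 members were called in AA+2i against DMSO (*Lrp2* and *Cubn*), 2 in AA+2i against AA (*Lrp2* and *Pdgfra*) and 1 in AA+2i against 2i (*Lrp2*), beside 4229, 1992 and 606 of 13400 genes. The adjusted p of *Lrp2* was 0.00121, 0.0023 and 0.0073. With the GC correction and the replicate block together, the counts were 1, 3 and 1, beside 4589, 3424 and 1436 of 13286 genes.

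Estimates near 0 changed sign under some settings. For *Cubn* in 2i against DMSO it was -0.009 and -0.047 with limma at a pseudocount of 1 and 0.1. In AA+2i against 2i the GC correction gave -0.081 for *Gata6* and 0.058 for *Dab2*, and with the block -0.09 and 0.055. When a letter or a library was left out, the range in 2i against DMSO was -0.22 to 0.38 for *Cubn*, -0.43 to 0.24 for *Lrp2* and -0.85 to 0.075 for *Pdgfra*. In AA against DMSO it was -0.46 to 0.035 for *Cubn*, -0.66 to 0.056 for *Gata6* and -0.63 to 0.31 for *Lrp2*. In AA+2i against 2i it was -0.23 to 0.16 for *Dab2*, -0.001 to 0.32 for *Gata6* and -1.25 to 0.11 for *Pdgfra*, and in AA+2i against AA -0.74 to 0 for *Gata6*. The counts behind *Gata6*, *Pdgfra* and *Cubn* fall to 2 or 3 in a library, which limits what these libraries can show, and the 5 members under the filter have fewer. Of 48 calls among the other lists, 32 were kept without the A libraries, 5 without B and 18 without C, and 0 turned direction under any alternative.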
